A study of Homo sapiens with 16 samples.

Results

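The genes described here are the core set of HLA class II antigen presentation. They are the antigen-presenting chains HLA-DRA, HLA-DRB1, HLA-DPA1, HLA-DPB1, HLA-DQA1 and HLA-DQB1, the peptide-loading chains HLA-DMA and HLA-DMB, the invariant chain CD74, and CIITA. These 10 genes were chosen by symbol, without use of their values, among 57820 genes in a table of RNA sequencing counts. The cells were CUTLL1, KOPTK1 (Koptk1 in the labels) and HPB-ALL (HpbALL in the labels), 3 established human lines of T-cell acute lymphoblastic leukaemia in which the long non-coding RNA lnrCXCR4 was targeted. In CUTLL1 and KOPTK1, 1 library with a non-targeting guide was set against 2 libraries with a targeting guide (sgRNA1 and sgRNA2), delivered by lentivirus. The same lines also had 1 library with a scrambled antisense oligonucleotide (ASO) and 2 with a targeting ASO, added at 1 uM. HPB-ALL had 2 libraries with the non-targeting guide and 2 with targeting guides. That makes 16 libraries, 6 control and 10 targeted, in 5 experiments. All were bulk cultures of established lines, and how many clones the CRISPR cultures held is not stated in the labels. The labels do not say whether libraries of a group were separate cultures. The p-values therefore reflect the variation among libraries only, possibly technical. In targeted groups it lies between reagents numbered 1 and 2, which other labels call replicates. The standard deviations given for CUTLL1 and KOPTK1 pool guide and ASO libraries. lnrCXCR4 itself was not analysed here.

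HLA class II molecules are heterodimers of an alpha and a beta chain that show peptides from the endosomal pathway to CD4 T cells. CD74 fills the groove of a new class II dimer and guides it to endosomes, where cathepsins trim CD74 and the HLA-DM dimer (HLA-DMA with HLA-DMB) exchanges the remaining fragment for antigenic peptide. HLA-DO (HLA-DOA with HLA-DOB) restrains HLA-DM. Transcription of these genes depends on CIITA, a co-activator without DNA binding of its own, which docks on the factors RFX, CREB and NF-Y at the X and Y boxes of their promoters. CIITA is constitutive in dendritic cells and B cells, is induced elsewhere by interferon gamma, and is switched on in activated human T cells. Many T-cell leukaemia lines lack surface class II.

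The promoters are shown first, because CIITA acts on class II genes through the X and Y boxes. Of the 10 genes, 8 had a window in the RefSeq promoter table (GRCh38.p14, from 250 bases before to 50 after the start), and HLA-DRA and CIITA had none. All windows printed lie on the minus strand of chromosome 6. Capitals mark an X-like run with the letters AGNNNCNGATG and the inverted CCAAT letters of a Y box, ATTGG. The X-like letters are the bases shared by the windows of HLA-DRB1, HLA-DQB1, HLA-DMA and HLA-DOB over the 11 bases that end with GATG before the Y box, chosen after class II windows were seen, so that these 4 windows match by construction. Both motifs were searched on both strands, and a pair counted when ATTGG followed the X-like run on the same strand after 10 to 30 bases.
HLA-DRB1, chr6:32589884-32589933: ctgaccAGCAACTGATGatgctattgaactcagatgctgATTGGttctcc
HLA-DQB1, chr6:32666735-32666784: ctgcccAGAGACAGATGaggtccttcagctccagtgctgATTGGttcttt
HLA-DMA, chr6:32953166-32953216: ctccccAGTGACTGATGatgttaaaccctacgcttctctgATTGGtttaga
HLA-DMB, chr6:32941100-32941122: ttacctAGTAACTGATGatgcta
HLA-DOB, chr6:32817090-32817138: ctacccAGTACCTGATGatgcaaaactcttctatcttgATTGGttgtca

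In the windows of HLA-DRB1, HLA-DQB1 and HLA-DMA the X-like run and ATTGG stood 22, 22 and 23 bases apart. In HLA-DOB, which is no member but is described below, the gap was 21 bases. HLA-DMB held the X-like run without a following ATTGG at that spacing. The windows of HLA-DPA1, HLA-DPB1, HLA-DQA1 and CD74 held no X-like match on either strand, so 3 of the 8 genes with a window had the pair. Those 3 are among the windows the letters were read from, so this count follows from that choice. A window without these letters may still hold an X box. Over all 35114 windows of the table, 3.4% held the X-like letters, 34.6% held ATTGG, and 29 windows (0.0826%) held the pair at this spacing. Of those 29 windows, 6 belonged to HLA-D genes. These were the 4 windows the letters were read from, which match by construction, and those of HLA-DRB5 and HLA-DQB2. The match describes letters only. HLA-DRB1 and HLA-DMA both hold the pair by construction, with other bases at some N positions and gaps of 22 and 23. They had 28 and 1303 reads in these libraries. Whether the letters bear on expression was not tested.

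The cultures carried the T-cell markers their labels call for. All 6 of CD3D, CD3E, CD3G, CD247, CD7 and LCK had at least 1629 normalised read counts (reads divided by a factor for each library) in every library. Their summed level was 111027 to 123009 in the controls and 54163 to 72537 in the targeted libraries. Among the 8 B-cell markers, MS4A1 stayed at or below 0.952 and PAX5 at or below 13.2. CD79A was at 125 to 2005 in all lines. CD79B was at 659 ± 0.328 in the KOPTK1 controls and 172 ± 20.8 in the HPB-ALL controls (SD, n = 2), and at most 7.81 in CUTLL1. Among the 10 myeloid and dendritic markers, AIF1 was at 2584 to 11750, CD14 at most 32.4 and FCER1G at most 29.2, and the other 7 at most 6.61. Libraries held 34547469 to 72178929 reads.

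Most of the class II set was close to silent in all 3 lines and in both arms. For 7 of the 10 genes no library exceeded a normalised count of 6.38. HLA-DRA, the invariable alpha chain of HLA-DR and in antigen-presenting cells one of the most abundant class II transcripts, had 3 reads among 772323664 (exact 95% Poisson interval 0.619 to 8.77). These 3 reads fell in 3 libraries of KOPTK1, the non-targeting guide control and both targeting ASOs. Intervals and limits given here cover counting error only. A count of 0 in a library allows 1.96 to 4.02 normalised counts (3 reads), so differences between arms of a few counts were not detectable at this depth.

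HLA-DRB1, the polymorphic beta chain that pairs with HLA-DRA, had 28 reads (interval 18.6 to 40.5) spread over 12 libraries, with at most 3.19 normalised counts in any. Its reads were divided almost evenly, with 10 in CUTLL1, 10 in KOPTK1 and 8 in HPB-ALL. HLA-DPA1 and HLA-DPB1, the chains of HLA-DP, had 6 reads each. For HLA-DPA1, 5 of these came from CUTLL1 and 1 from KOPTK1, and for HLA-DPB1, KOPTK1 and HPB-ALL gave 3 each.

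CIITA had 10 reads in all (interval 4.8 to 18.4), in 7 of 16 libraries. By line this was 5 reads in CUTLL1, 3 in KOPTK1 and 2 in HPB-ALL. The highest library was KOPTK1 with ASO 2, at 4.02 normalised counts or 3 reads, and the KOPTK1 controls had none. In CUTLL1 all 5 reads were in the 4 targeted libraries (1, 1, 1 and 2) and the controls had none, whereas in HPB-ALL the 2 reads were in the controls, 1 in each. CD74, which in antigen-presenting cells far exceeds the class II chains it serves, had 17 reads (interval 9.9 to 27.2). Of these, 15 were in HPB-ALL, at 1.32 and 4.76 normalised counts in the controls and 6.38 and 0.769 with guides 1 and 2. The arms overlapped.

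**Figure D1:**
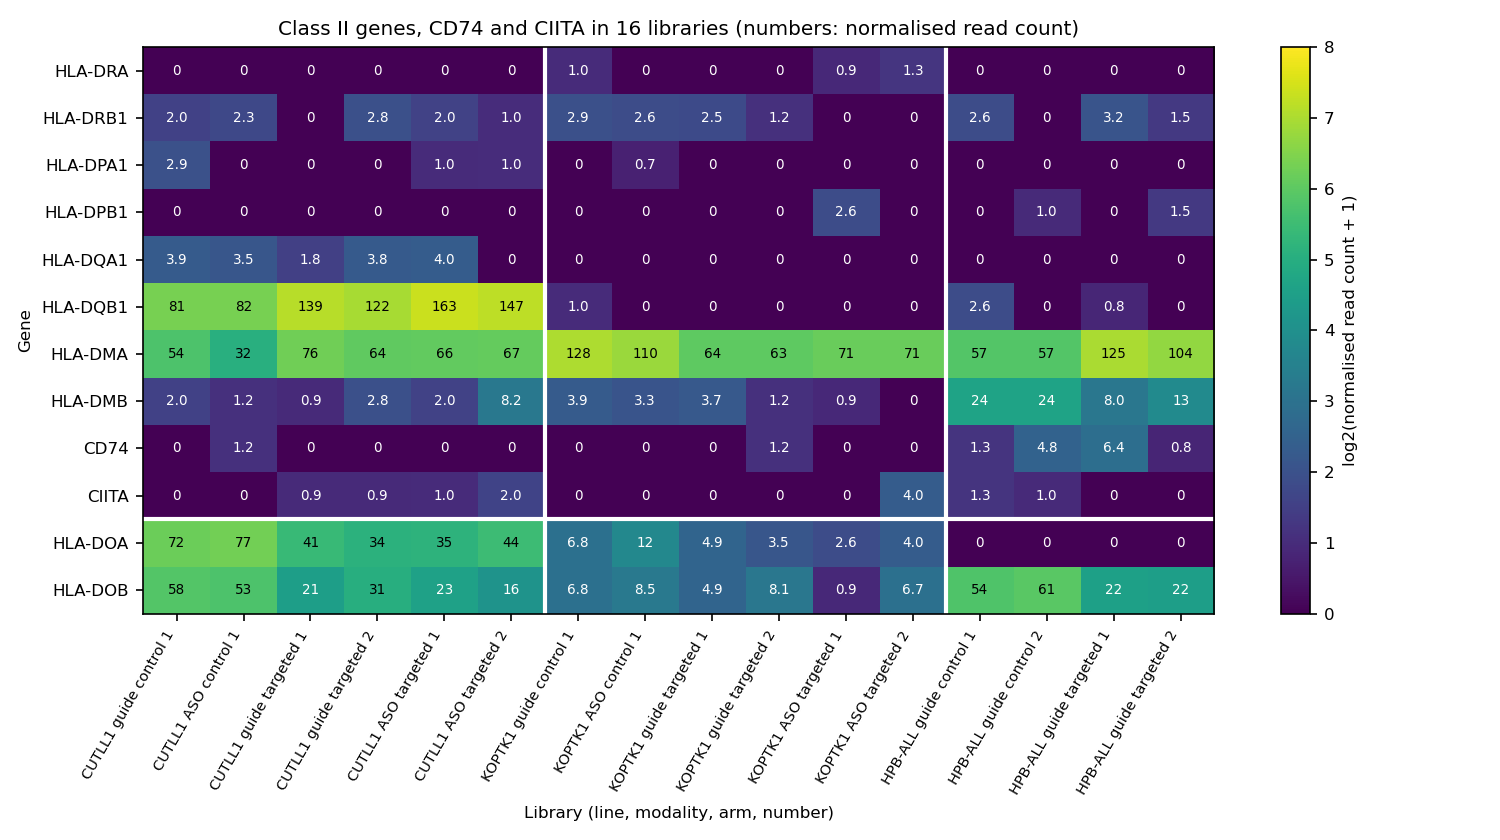
Normalised read counts of the 10 genes and, below a white line, HLA-DOA and HLA-DOB for comparison (rows) in the 16 libraries (columns). Columns are labelled by line, modality, arm and number, with colour on a log scale and the value written in each cell. HLA-DMA is filled in every library, HLA-DQB1 in the 6 CUTLL1 libraries, and HLA-DMB mainly in the HPB-ALL controls, at 23.8 each.

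HLA-DQB1, the beta chain of HLA-DQ, was detected in CUTLL1 and nearly absent elsewhere. Of its 745 reads, 741 came from CUTLL1, 3 from HPB-ALL and 1 from KOPTK1. In CUTLL1 the normalised counts were 81.0 with the non-targeting guide, 81.8 with the scrambled ASO, 139 and 122 with guides 1 and 2, and 163 and 147 with ASOs 1 and 2. Every targeted CUTLL1 library lay above both controls, and the arms did not overlap. In the other lines the highest value was 2.64, and all 4 targeted KOPTK1 libraries had none.

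The CUTLL1 means were 81.4 ± 0.55 (SD, n = 2) in controls and 143 ± 16.9 (SD, n = 4) in targeted libraries. In a fit of the 6 CUTLL1 libraries alone, added after the values were seen, HLA-DQB1 rose by a log2 fold change of 0.80 (SE 0.12, limma adjusted p = 1.43e-05). Of the 13464 genes tested there 78.8% were called. edgeR's quasi-likelihood test on the recovered reads of 5 CUTLL1 libraries gave 0.76 (adjusted p = 8.26e-05; 76.3% called). The limma call held with each library left out in turn, at 0.68 to 0.91. With the spread shared over all 3 lines, HLA-DQB1 was not called in either CUTLL1 experiment. The log2 fold changes there were 0.68 with guides (SE 0.63, limma adjusted p = 0.378; 62.3% of genes called) and 0.91 with ASOs (adjusted p = 0.234; 62.3% called). That spread includes 10 libraries at 0 to 2.64 counts. In the same design, but without the CUTLL1 library of ASO 1, edgeR called the guide experiment, at 0.70 (adjusted p = 0.018). With ASOs edgeR gave 0.86, from ASO 2 alone against the lone control.

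The alpha chain that HLA-DQB1 needs for a dimer was far lower. HLA-DQA1 had 17 reads in the series, all of them in CUTLL1, with 4 and 3 reads in the controls, 2 and 4 with guides, and 4 and 0 with ASOs. Per kilobase of merged exon length, HLA-DQB1 was at 16.6 in the CUTLL1 controls and 29.1 in the targeted libraries, against 0.531 and 0.347 for HLA-DQA1. The gap ran the same way in all 6 libraries. HLA-DQ genes are highly polymorphic and have close copies, so reads from a line's own alleles could be split or lost against the reference, and differences in level between lines and between these chains are uncertain for that reason. The copies HLA-DQA2 and HLA-DQB2 did not exceed 5.53 and 0 normalised counts. The antisense gene HLA-DQB1-AS1 was at 0 throughout.

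HLA-DMA, the alpha chain of the peptide-editing HLA-DM dimer, was the 1 gene of the 10 with reads in every library, 1303 in all. Its values ran from 32.2 to 128 with a median of 66.7. Per kilobase, its mean stood at the 14.5th percentile of tested genes with a known length, and that of HLA-DQB1 at the 5.09th. HLA-DMA moved in opposite directions in different lines when lnrCXCR4 was targeted: it was higher in HPB-ALL and CUTLL1 and lower in KOPTK1.

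In HPB-ALL, HLA-DMA was at 56.8 and 57.1 in the controls and at 125 and 104 with guides 1 and 2. The targeted libraries lay well above the controls, with means of 57.0 ± 0.224 (SD, n = 2) and 115 ± 15.2 (SD, n = 2). The log2 fold change was 0.99 (SE 0.16, limma adjusted p = 0.000151), in an experiment where 70.9% of tested genes were called. In HPB-ALL libraries alone, leaving out each in turn gave 0.85 to 1.12.

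In KOPTK1, HLA-DMA was at 128 with the non-targeting guide and 110 with the scrambled ASO. It was at 64.0 and 63.3 with guides 1 and 2, and at 71.0 with each ASO. All 4 targeted libraries lay below both controls, with means of 119 ± 12.5 (SD, n = 2) and 67.3 ± 4.24 (SD, n = 4). The log2 fold change with guides was -0.99 (SE 0.19, limma adjusted p = 0.000841; 64.1% of genes called). With ASOs it was -0.63 (adjusted p = 0.0146; 63.4% called). The ASO call was lost with quantile scaling (-0.28, adjusted p = 0.225) and with DESeq2 (-0.63, adjusted p = 0.141). In the 6 KOPTK1 libraries together the change was -0.81 (SE 0.16, limma adjusted p = 0.000179; 74.3% called), and it kept its call with each library left out, at -0.99 to -0.63.

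In CUTLL1, HLA-DMA was at 53.7 with the non-targeting guide and 32.2 with the scrambled ASO. It was at 76.4 and 64.4 with guides and at 65.9 and 67.4 with ASOs. The 4 targeted libraries lay above both controls, but the controls themselves were apart: 55 reads give an exact 95% interval of 40.4 to 69.8 normalised counts and 28 reads one of 21.4 to 46.6. With ASOs the log2 fold change was 1.03 (limma adjusted p = 0.000722; 62.3% of genes called). DESeq2, run without ASO 1 and so on ASO 2 alone against the lone control, gave 1.07 and did not call it. With guides it was 0.38 (SE 0.19, adjusted p = 0.111), which passed with quantile scaling only (0.69, adjusted p = 0.00802). In the 6 libraries together HLA-DMA rose by 0.70 (SE 0.18, adjusted p = 0.00222). Without the scrambled ASO control this was 0.38 and no longer called (adjusted p = 0.144).

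**Figure D2:**
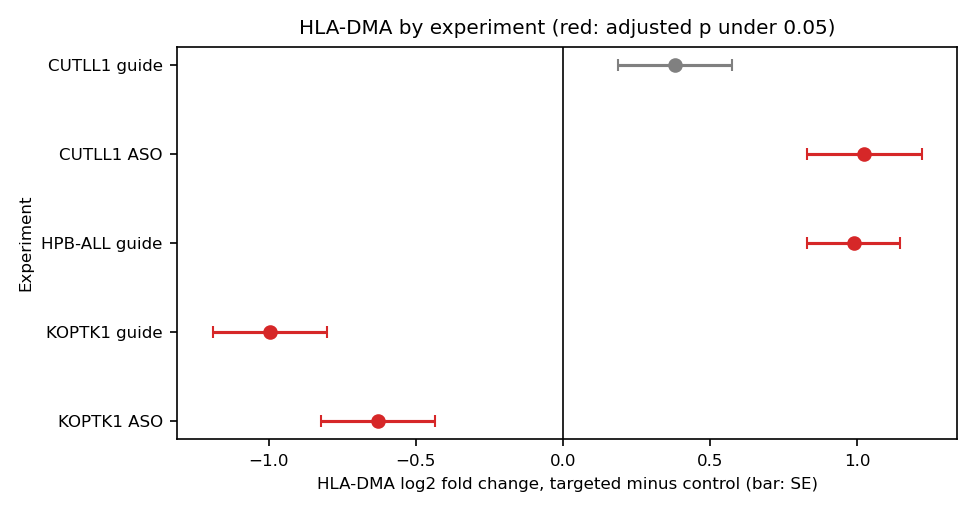
Log2 fold change of HLA-DMA, targeted minus control (horizontal axis, points with SE bars), in each of the 5 experiments (vertical axis), with red for an adjusted p under 0.05. CUTLL1 and HPB-ALL lie to the right of 0 and KOPTK1 to the left, from 1.03 with ASOs in CUTLL1 to -0.99 with guides in KOPTK1.

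The difference between lines was tested directly. An F test of the guide effect across the 3 lines gave F = 31.54 for HLA-DMA (limma adjusted p = 0.000323), and 43.7% of all tested genes passed it. Over guides and ASOs together, the effect in KOPTK1 minus that in CUTLL1 was -1.51 (SE 0.19, limma adjusted p = 0.000207), a contrast added after the values were seen, in which 27.6% of genes passed. Guides and ASOs, averaged over these lines, were not shown to differ for HLA-DMA: the guide effect minus the ASO effect was -0.51 (unadjusted p = 0.0246, limma adjusted p = 0.496). In that contrast limma called 0 of 14020 genes, and 1393 had an unadjusted p under 0.05. Of 14013 genes tested on recovered reads, edgeR called 0 and DESeq2 called 1.

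The pooled comparisons called none of the chosen genes. Of the 10 class II genes, 2 could be tested in the joint comparison of all 16 libraries (mean of 20 or more), and neither was called, where 75% of 14020 genes were. HLA-DMA had a log2 fold change of 0.23 (SE 0.24, limma adjusted p = 0.391) and HLA-DQB1, which entered only through CUTLL1, -0.03 (SE 0.31, adjusted p = 0.941). The HLA-DQB1 value mixes 0.68 and 0.91 in CUTLL1 with -0.98 (KOPTK1 guides) and -0.51 (HPB-ALL guides). The latter come from libraries of at most 2.64 counts, so the pooled HLA-DQB1 values do not describe CUTLL1. In the guide comparison, where 67.7% of genes were called, HLA-DMA was at 0.25 (adjusted p = 0.471) and HLA-DQB1 at -0.30 (adjusted p = 0.561). In the ASO comparison, where 65% were called, they were 0.20 (adjusted p = 0.649) and 0.46 (adjusted p = 0.284). With quantile scaling HLA-DMA was called higher in the joint comparison (0.55, adjusted p = 0.0407). Some of these values turned on 1 library. Without the KOPTK1 non-targeting guide control, HLA-DMA was called higher in the joint comparison (0.50, adjusted p = 0.0416) and in the guide comparison (0.75, adjusted p = 0.00439). In the ASO comparison it was -0.63 (adjusted p = 0.0226) without the CUTLL1 scrambled ASO control and 1.03 (adjusted p = 0.00438) without the KOPTK1 one. HLA-DQB1 was called higher there without the KOPTK1 scrambled ASO control (0.91, adjusted p = 0.0347). Without the CUTLL1 one only KOPTK1 libraries, all at 0, bore on it, and the value was 0.

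The lines already differed in HLA-DMA before targeting. Among controls, KOPTK1 was highest, above CUTLL1 by 1.49 on the log2 scale (limma adjusted p = 4.74e-06; 73.9% of genes called) and above HPB-ALL, which was lower than KOPTK1 by a log2 difference of -1.05 (adjusted p = 8.06e-05; 77.6% called). HPB-ALL and CUTLL1, neighbours in that order, were not stably apart. Their difference of 0.44 (adjusted p = 0.0236; 77.7% called) was 0.09 (adjusted p = 0.709) with guide controls alone. It also missed the threshold in edgeR (adjusted p = 0.07), in DESeq2 (adjusted p = 0.232), with TMM scaling (adjusted p = 0.0575), and without either HPB-ALL control (0.0618 and 0.0658). In the targeted libraries the order was another one, with HPB-ALL at 104 to 125 and CUTLL1 and KOPTK1 overlapping at 63.3 to 76.4. The KOPTK1 minus CUTLL1 effect of -1.51 was taken from these same controls. With targeted means of 67.3 in KOPTK1 and 68.5 in CUTLL1, it largely restates the control difference of 1.49.

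HLA-DMB, the beta chain of HLA-DM, was seen mainly in HPB-ALL, which gave 70 of its 101 reads. It was at 23.8 in each HPB-ALL control (18 and 25 reads) and at 7.98 and 13.1 with guides 1 and 2 (10 and 17 reads). The controls lay above the targeted libraries, opposite in direction to HLA-DMA in the same 4 libraries. Exact 95% Poisson intervals were 14.1 to 37.6 and 15.4 to 35.1 normalised counts in those controls. They were 3.83 to 14.7 and 7.62 to 20.9 with the guides, so that of guide 2 overlapped both controls. HLA-DMB did not reach a mean of 20 and was not tested with the filter. With no filter it was not called in HPB-ALL (-1.14, SE 0.68, limma adjusted p = 0.278). That SE is shared with the other lines, where HLA-DMB was at 0 to 8.17, highest in CUTLL1 with ASO 2. The same fit called, among others, HLA-DPA1 lower with guides in CUTLL1 (-1.97). That rested on 3 reads in the lone control and 0 in the targeted libraries. Calls and missing calls of the fit with no filter are therefore uncertain for genes this low. Per kilobase, HLA-DMA exceeded HLA-DMB in all 3 lines, at 22.5 against 5.11 in the HPB-ALL controls, 17.0 against 0.333 in the CUTLL1 controls and 47.0 against 0.766 in the KOPTK1 controls.

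**Figure D3:**
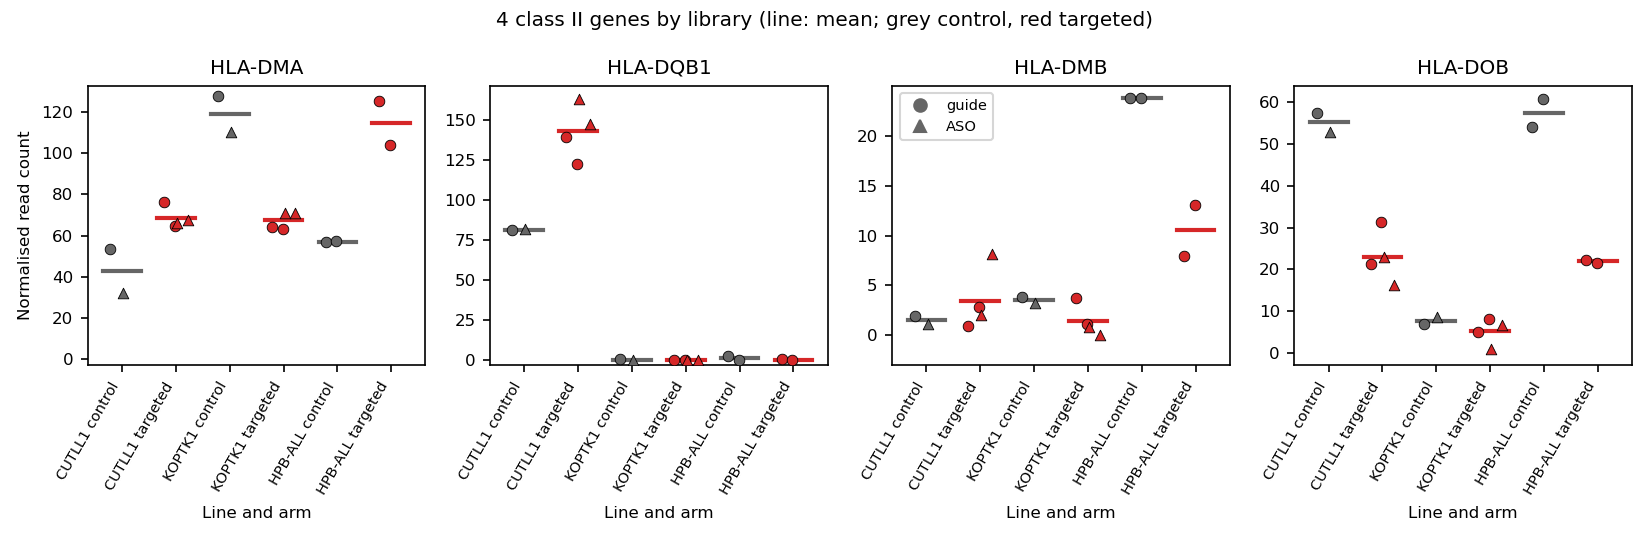
Normalised read counts (vertical axes, each from its own range) of HLA-DMA, HLA-DQB1, HLA-DMB and HLA-DOB by line and arm, with grey for control and red for targeted libraries, circles for guides, triangles for ASOs and lines for means. HLA-DMA was higher in targeted HPB-ALL and lower in targeted KOPTK1, HLA-DQB1 was confined to CUTLL1 but for values up to 2.64, and HLA-DOB had lower targeted values in CUTLL1 and HPB-ALL.

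The chains of HLA-DO, the inhibitor of HLA-DM, were outside the chosen 10 genes and are given for comparison. They were the 2 of 11 other class II genes in the table that reached the filter, HLA-DOA only through CUTLL1. In CUTLL1, HLA-DOA was at 72.2 and 77.2 in the controls and at 34.1 to 43.9 in the 4 targeted libraries. HLA-DOB was at 57.6 and 53.0 in those controls and at 16.3 to 31.3 in the targeted libraries. Neither gene's arms overlapped there. In CUTLL1 alone HLA-DOA fell by 0.95 (limma adjusted p = 0.000195) and HLA-DOB fell by 1.27 (adjusted p = 0.000191) on the log2 scale, in the fit added after the values were seen. With the spread shared over lines, HLA-DOA was called in both CUTLL1 experiments (-0.94, adjusted p = 0.0462 with guides; -0.96, adjusted p = 0.0424 with ASOs). HLA-DOB was called in neither (-1.13, adjusted p = 0.151; -1.40, adjusted p = 0.079).

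In HPB-ALL, HLA-DOA had no read in any library. HLA-DOB was at 54.2 and 61.0 in the controls and at 22.3 and 21.5 with guides. In the 4 libraries alone, in a fit added after the values were seen, it fell by 1.35 (limma adjusted p = 1.17e-05; 77.9% of genes called). With the spread shared over lines, the change of -1.35 had an SE of 0.53 (limma adjusted p = 0.0379; 70.9% called). In KOPTK1 both were low: HLA-DOB was at 6.78 and 8.48 in controls and 0.876 to 8.06 in targeted libraries, which overlap, and HLA-DOA at 6.78 and 12.4 against 2.63 to 4.93. In the joint comparison HLA-DOB fell by 1.09 (SE 0.28, limma adjusted p = 0.00317). The HLA-DOB call in the guide comparison (-0.93, adjusted p = 0.0108) was lost with quantile scaling (-0.61, adjusted p = 0.0857).

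Summed levels of other cell types' markers were lower in the targeted libraries of every line, and so was the T-cell sum given above. Single markers did not all fall, and HLA-DMA was higher in targeted HPB-ALL and CUTLL1. The B-cell list, led by CD79A and, outside CUTLL1, CD79B, summed to 352 to 373 in the CUTLL1 controls and 206 to 229 in the targeted libraries. In HPB-ALL it was 510 to 511 against 151 to 168, and in KOPTK1 2559 to 2671 against 461 to 574. CD79B itself had means of 659 in controls and 144 in targeted libraries of KOPTK1, and of 172 and 23.9 in HPB-ALL. The myeloid and dendritic list, led by AIF1, summed to 11415 to 11774 in CUTLL1 controls and 7074 to 7581 in targeted libraries. In HPB-ALL it was 4156 to 4386 against 2631 to 2727, and in KOPTK1 6527 to 6613 against 4345 to 4636. MS4A1, CSF1R and ITGAX were at or near 0 in every library. The part of these markers in the class II values was not tested. In bulk RNA, fewer cells with a transcript and less of it per cell cannot be told apart.

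The factors that occupy class II promoters were abundant, unlike CIITA. Of 10 promoter factors 10 were tested, 4 rose, 4 fell and 2 did not pass in the joint comparison. Their median log2 fold change was -0.03, equal at this precision to that of all genes (-0.03), where 36.2% of all genes were called higher and 38.8% lower. RFX5, the DNA-binding subunit of the RFX complex on the X box, fell by 0.59 (SE 0.03, limma adjusted p = 1.71e-10). Its CUTLL1 mean was 6440 ± 206 in controls and 4076 ± 66.9 in targeted libraries, and the KOPTK1 means were 5722 ± 152 and 3983 ± 113. In HPB-ALL they were 5818 ± 4.43 and 3844 ± 100.2. Here and for the genes that follow, ± is the SD, with n = 2 controls in each line and 4 targeted libraries in CUTLL1 and KOPTK1 or 2 in HPB-ALL.

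Its partners RFXAP and RFXANK fell by 0.64 (adjusted p = 1.17e-06) and 0.12 (adjusted p = 0.00504). NFYA, the subunit of NF-Y that contacts the CCAAT letters of the Y box, rose by 0.81 (adjusted p = 8.62e-09), with every targeted library above its line's controls. NFYB and NFYC did not pass (0.02 and -0.07). EP300, a histone acetyltransferase that CIITA recruits, rose by 0.37 (adjusted p = 1.36e-09). The RFX subunits and NFYA thus had opposite signs.

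The interferon gamma pathway, the classical inducer of CIITA, moved in both directions. Of its 15 genes 14 were tested, 4 rose, 5 fell and 5 did not pass, where 36.2% of all genes were called higher and 38.8% lower. The median was -0.04 against -0.03 for all genes. The receptor chain IFNGR1 rose by 1.10 (SE 0.04, limma adjusted p = 2.6e-11), from 1284 ± 47.0 to 2605 ± 94.7 in CUTLL1, and the other receptor chain, IFNGR2, fell by 0.97 (adjusted p = 6.82e-07). The kinase JAK1 rose by 0.82 (adjusted p = 1.52e-11). The interferon-inducible GTPase GBP1 fell by 1.82 (adjusted p = 1.52e-07), in KOPTK1 from 2064 ± 41.8 to 879 ± 42.0. IFNG itself was at 0 in CUTLL1 and KOPTK1 and at most 2.64 in HPB-ALL.

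Among 12 factors listed as regulators of CIITA transcription, 9 were tested, 3 rose, 5 fell and 1 did not pass, beside 36.2% higher and 38.8% lower among all genes. The median was -0.25, against -0.03 for all genes. IKZF1, the lymphoid zinc-finger factor Ikaros, fell by 2.02 (SE 0.07, limma adjusted p = 1.52e-11), in KOPTK1 from 21554 ± 109 to 5477 ± 237. IRF8, a lymphoid and myeloid interferon regulatory factor, fell by 4.12 (adjusted p = 3.14e-08), in HPB-ALL from 731 ± 18.5 to 52.1 ± 0.304. FOXO1 rose by 1.68 (adjusted p = 5.83e-10) and TCF3 fell by 0.75 (adjusted p = 1.46e-09). PRDM1, a repressor of CIITA in plasma cells, was under the filter, at 51.2 ± 0.738 in CUTLL1 controls and 6.13 ± 4.32 in targeted libraries. SPI1, the myeloid factor PU.1, was at most 2.63. CIITA stayed at 0 to 4.02 beside all of these.

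Genes that act on class II in endosomes were mostly expressed. Of the 10 listed genes with a row, 7 were tested, 2 rose, 4 fell and 1 did not pass, beside 36.2% higher and 38.8% lower among all genes. The median was -0.39, against -0.03. CTSS, the cathepsin that makes the last cut in the invariant chain, fell by 2.81 (SE 0.14, limma adjusted p = 4.77e-10), in KOPTK1 from 1035 ± 28.8 to 120.2 ± 16.5 and likewise in CUTLL1 from 202 ± 19.1 to 23.7 ± 4.96. CTSD, an aspartic protease, fell by 0.39 (adjusted p = 3.63e-06). CTSH fell by 1.01 (adjusted p = 0.0048), and in HPB-ALL it was near 0, at 5.29 to 11.2. SPPL2A, the intramembrane protease that clears the CD74 stub, rose by 0.60 (adjusted p = 3.23e-08). The lysosomal thiol reductase IFI30, which unfolds antigens for class II, was at most 6.16 in any library.

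CD74 is also the receptor for the cytokine MIF, with CD44 and CXCR4 as partners. Of 6 such genes with a row, 5 were tested, 1 rose, 3 fell and 1 did not pass, with a median of -0.22 against -0.03 for all genes, of which 36.2% were called higher and 38.8% lower. CXCR4, the gene lnrCXCR4 is named for, rose by 0.23 (SE 0.05, limma adjusted p = 0.00141). Its means were 17930 ± 537 in controls and 24738 ± 673 in targeted libraries of KOPTK1, and 24671 ± 352 and 27161 ± 552 in CUTLL1. In HPB-ALL they were 31765 ± 868 and 32722 ± 910.4, and the arms overlapped. CD44 fell by 0.96 (adjusted p = 1.11e-05), ACKR3 fell by 3.37 (adjusted p = 2.61e-05) and MIF by 0.22 (adjusted p = 0.00239). All stood beside a CD74 level of 0 to 6.38. Of the T-cell receptors that bind class II, CD4 fell by 0.73 (adjusted p = 0.00167). Its control and targeted means were 2655 ± 83.4 and 911 ± 45.5 in KOPTK1, 18176 ± 9.58 and 13515 ± 157 in CUTLL1, and 28204 ± 77.0 and 27332 ± 353 in HPB-ALL. LAG3 was under the filter, at 2.30 to 6.83 in CUTLL1 controls and 17.4 to 28.5 in CUTLL1 targeted libraries.

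Some genes lying next to the silent ones on the chromosome were active and others were not. Of the neighbours of CIITA, 9 were in the table and 5 tested, 3 rose and none fell, where 36.2% of all genes were called higher and 38.8% lower. TNP2 and PRM1 were at 0 in every library, TVP23A at most 2.30 and TEKT5 at most 12.3. DEXI rose by 0.44 (limma adjusted p = 1.34e-05), NUBP1 by 0.33 (adjusted p = 4.57e-06) and CLEC16A by 0.30 (adjusted p = 2.2e-07). CLEC16A was at 1567 to 4285 in every library while CIITA was at 0 to 4.02. Of the genes without an HLA name inside the class II region, 6 were tested, 3 rose and 2 fell, beside the same 36.2% and 38.8%, and BTNL2 was at 0 throughout. The immunoproteasome gene PSMB8 fell by 1.46 (adjusted p = 3.6e-10) and PSMB9 by 0.40 (adjusted p = 6.76e-07), whereas the chromatin reader BRD2 rose by 0.88 (adjusted p = 1.03e-11). The peptide transporter TAP1 was 0.00 apart (adjusted p = 0.997). Neighbours were taken from a list of symbols, without coordinates.

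**Figure D4:**
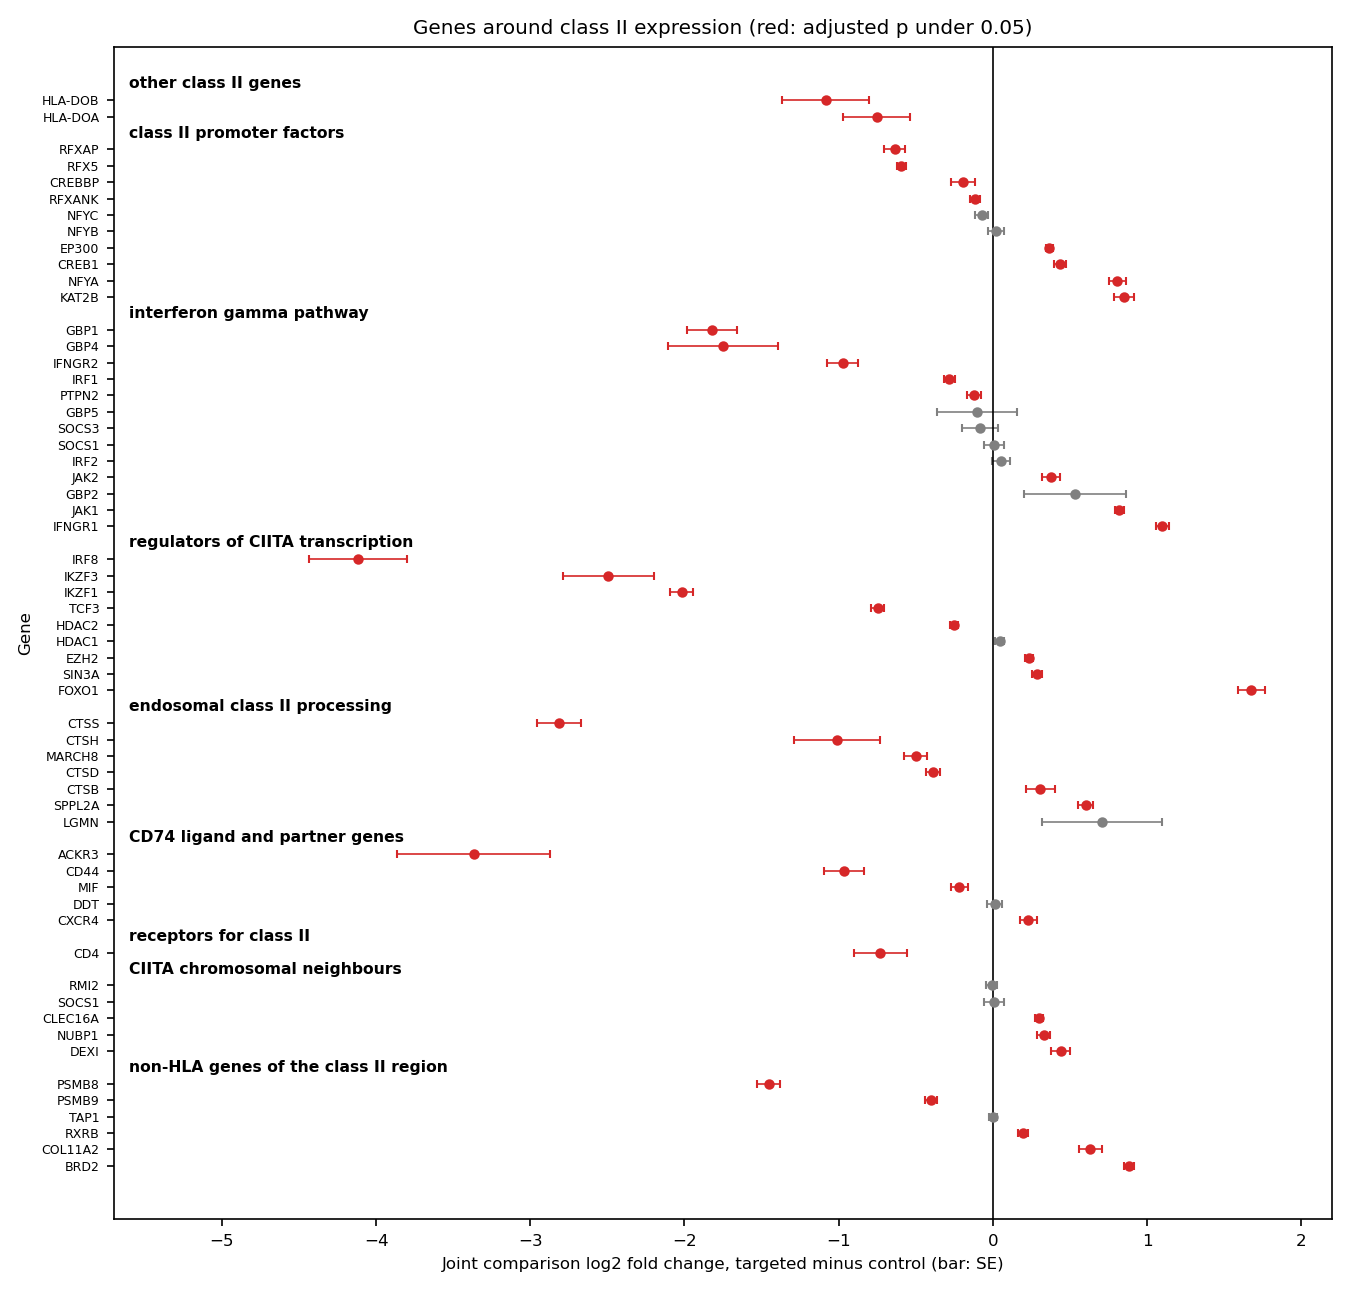
Log2 fold change in the joint comparison (horizontal axis, points with SE bars) of tested genes around class II expression (vertical axis, 1 tested gene not drawn), with red for an adjusted p under 0.05. Promoter factors fall on both sides of 0, with RFX5 at -0.59 and NFYA at 0.81, and the largest negative value shown among CIITA regulators is that of IRF8.

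The genes whose levels ran most like those of HLA-DQB1 over the 16 libraries were ATRNL1 (Pearson r = 0.993 of log2 values) and TEKT4P2 (r = 0.992). Like HLA-DQB1 they were expressed in CUTLL1 and at most 2.64 in the other lines, so these r describe the line. ATRNL1 was at 325 ± 12.6 in CUTLL1 controls and 377 ± 16.3 in targeted libraries. Most like HLA-DMA were RNA5-8SP2 (r = 0.806) and CCDC120 (r = 0.8). CCDC120 was at 865 ± 19.4 in HPB-ALL controls and 1015 ± 25.9 in targeted libraries, and at 1084 ± 57.6 and 984 ± 32.2 in KOPTK1. The points of each r share the lines and the 5 sets of controls.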

How the data were processed

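RNA sequencing of 16 libraries was analysed from 1 table of normalised read counts. The authors' deposited values are a signal: whole reads divided by 1 factor for each library, and 100% of values were whole multiples of that step within a tolerance of 1e-06. Per the submitters' processing notes STAR 1.4.2, DESeq2 and hg19 were used, in roles not stated. The read counter, annotation and strand setting were not given in the sources used here. Reads of polymorphic HLA alleles and close copies may be split.

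Tests used log2(normalised count + 1) in limma 3.58.1 (R 4.3.3) with an intensity trend. Genes needed a mean of at least 20 over the libraries fitted, with Benjamini-Hochberg adjusted p under 0.05 as the threshold. Such fold changes understate those of low genes. The joint comparison had experiment as a term, and the guide and ASO comparisons had line. A single fit of 10 group means gave the single experiments, the line contrasts and the guide minus ASO contrast, and in it a lone control is assumed to vary like the other groups. Fits of each line alone and the KOPTK1 minus CUTLL1 contrast were added after the data were seen. In the joint comparison 14020 genes were tested. sgRNA or ASO numbers 1 and 2 were used as replicates.

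Alternatives were pseudocount 5, no filter or a mean of 100, quantile and TMM scaling, the replicate number as a block, guide controls alone, each library left out, and edgeR 4.0.16 and DESeq2 1.42.0 on recovered reads of 15 libraries. The library of CUTLL1 with ASO 1 was left out of recovered-read tests, since its step of 0.999 is too near 1 to be checked. Exon lengths were matched by symbol from a GRCh38 annotation, for 86.1% of tested genes. Libraries differed by more than counting noise in every pair compared. The test scripts were tested on simulated data.

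The genes, the lists and the tests were chosen with earlier results of these data known. The rule for named genes took all 10 members, up to 3 genes of smallest joint p and up to 2 defining genes from each list, and the 2 genes most alike in pattern. IFNGR2, CD79A and AIF1 were named after their values were seen. Values of 2 listed genes are not reported here, though the list counts and sums include them.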

Additional observations from a re-analysis of the deposited data

Results flagged for a closer look

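The response of HLA-DMA differed between lines by a test of the difference itself. For the guide effect across the 3 lines, F was 31.54 (limma adjusted p = 0.000323), and it stayed past the threshold in every alternative in which it was run. Over guides and ASOs, the effect in KOPTK1 minus that in CUTLL1 was -1.51 (limma adjusted p = 0.000207), with all 4 targeted KOPTK1 libraries below and all 4 targeted CUTLL1 libraries above their line's controls. Of all genes, 43.7% and 27.6% passed these tests. The targeted means were 67.3 in KOPTK1 and 68.5 in CUTLL1, so the value of -1.51 largely restates the control difference of 1.49. The CUTLL1 controls were themselves apart, at 53.7 and 32.2. Groups of HLA-DMA, HLA-DQB1, HLA-DOA and HLA-DOB values were screened for a library far from the others. Each of the 5 groups large enough had none. All 5 were targeted libraries of CUTLL1 or KOPTK1, so no control group and no HPB-ALL group could be screened.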

How the results depend on the processing

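Of the counts of called genes, 304 values under an alternative stayed within 1.5 times and 9 did not. This tally and that for single genes include cases where the library left out was not in the comparison. An example is the guide comparison without an ASO library, which could not change. The guide minus ASO contrast called 0 genes, against 1 with pseudocount 5, 1 with quantile scaling, 1 with DESeq2, 1501 with no filter, and 0 to 4 with a library left out. KOPTK1 minus CUTLL1 called 3864 genes, and 2474 with DESeq2. For single genes, 503 values kept direction and call, 10 gained a call, 14 lost one and 15 changed sign. All sign changes were in pooled comparisons whose reported value missed the threshold. HLA-DQB1 in the joint comparison (-0.03) was 0.18 with pseudocount 5, 0.19 with quantile scaling, 0.69 with edgeR (adjusted p = 0.0341), 0.44 with DESeq2, and -0.24 to 0.21 with a library left out. In the guide comparison (-0.30) it was 0.029 with pseudocount 5, 0.56 with edgeR, and -0.70 to 0.042 with a library left out. HLA-DMA in the ASO comparison (0.20) was -0.078 with edgeR and -0.63 to 1.03 with a library left out. The cause was not tested. Quantile scaling moved the median of all genes in the guide comparison from -0.03 to 0.07. With the replicate number as a block, HLA-DQB1 in the joint comparison was 0.12 and the calls went from 10514 to 10275 (joint), 9519 to 9188 (guide) and 8913 to 7301 (ASO). Deviations of same-numbered libraries had r from -0.0129 to 0.0636 over 15 pairs, above 0 in 10, so the numbers do not pair the libraries. A lone control left out gives no value for its experiment, the F test was not run with DESeq2, and a mean of 100 leaves no class II gene. Genes under about 3 reads a library lie below what this depth resolves.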
